A study of Mus musculus with 12 samples.

Results

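The changes that remained in the colitis rectum while berberine was given were measured by setting 3 colitis mice receiving berberine (BBR) against 3 normal mice, 6 of the 12 mice of the series. Members were chosen by the group each sample label gives. All mice were male C57BL/6 mice of 8 to 10 weeks of age. Normal mice drank water. Colitis mice were given 2.5% dextran sulfate sodium (DSS), a sulfated sugar polymer that injures the bowel lining, in their drinking water for 7 days. Colitis mice receiving BBR had the same DSS and, by gavage, 100 mg/kg of BBR once a day, on days 1 to 7 by the methods and for 6 days by the labels. The mice were killed on day 8, with collection from 9 am, and RNA of the rectum (colorectum in the labels) was sequenced. The 3 colitis mice and the 3 normal mice receiving BBR enter as reference values. Mice are named by the numbers of their labels, which are 1, 3 and 4 for normal mice with or without BBR, 2, 3 and 4 for colitis mice receiving BBR and 1, 2 and 4 for colitis mice, and the values of a group are given in that order. Below, the colitis mice receiving BBR are called treated mice, and colitis mice means those without BBR.

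DSS strips the epithelium and lets bacteria reach the tissue beneath it. Neutrophils and monocytes enter, and the surviving epithelium makes antimicrobial proteins, oxidases and cytokines. Crypt base stem cells, which need Wnt signals from the stroma below, are lost early and are replaced as the crypts heal. BBR is a plant alkaloid given for diarrhoea.

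Large bowel tissue was plain in every library, since Lypd8, a secreted coat protein of the colon surface, held the highest value in all 12 mice, with 25919.7, 27741 and 16101 FPKM in normal mice and 60727, 48063 and 19686 in treated mice. FPKM are reads scaled for transcript length and depth. Lypd8 does not tell rectum from colon, which was not examined further. The 4 mice numbered 4, 1 in each group, stood apart, with totals of at most 504337 FPKM and 872 to 1086 genes at 0 against totals of at least 696286 and 1332 to 1926 genes at 0 in the other 8. Steps between low values put the depth at about 18.7 and 18.8 M reads in the normal mouse 4 and the colitis mouse 4 receiving BBR and at 11.3 to 12.3 M in the other 4 compared mice. The colitis mouse 4 receiving BBR also lay near the normal mice. Among 11896 genes with a mean of at least 1 FPKM, 524 (4.4%) differed at least 2-fold from the normal mean in this mouse. The count was 3532 (29.7%) in mouse 2 and 3796 (31.9%) in mouse 3 receiving BBR. It was 300, 401 and 955 in the normal mice, each set against the mean of the other normal mice. The colitis mice without BBR had 2815, 3476 and 1237 such genes, again with the lowest count in mouse 4. The part of its depth and total in this was not tested, and results are given for all mice, and for several gene lists also without this mouse.

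**Figure D1:**
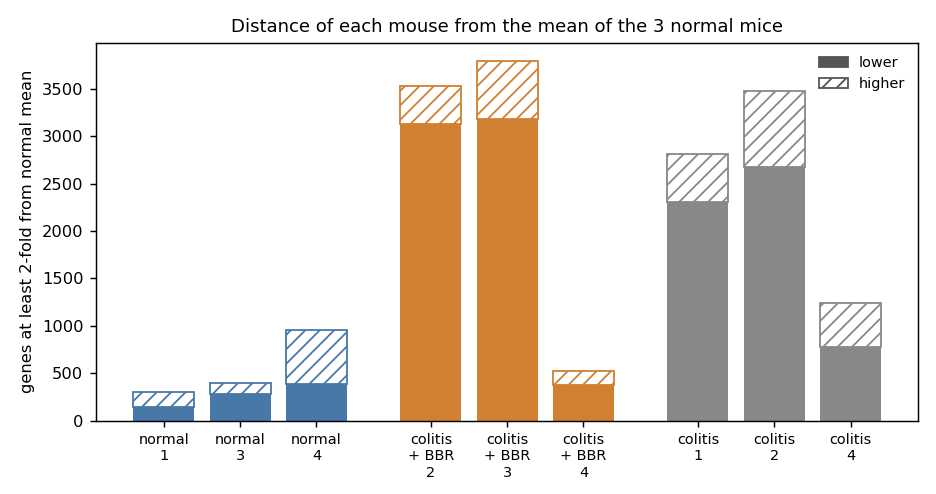
Each bar counts, for 1 mouse, the genes that lie at least 2-fold from the mean of the 3 normal mice. They are taken from 11896 genes with a mean of at least 1 FPKM. A normal mouse is set against the mean of the other normal mice. Genes below the mean are filled and genes above it hatched. Colitis mice 2 and 3 receiving BBR reach 3532 and 3796 genes, most of them lower, and mouse 4 reaches 524.

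With all 6 mice, 3 of 15315 genes passed a Benjamini-Hochberg adjusted p of 0.05 in limma on log2(FPKM + 0.1), 0.0196% of the genes tested. Socs3 rose (0.00653% of genes in that direction), and Igfbp3 and Tnfrsf17 fell (0.0131%). At an unadjusted limma P of at most 0.05, the limit the study's methods name, 3078 genes (20.1%) differed, 282 higher (1.84%) and 2796 lower (18.3%). Below, "at the unadjusted limit" means past this P. The groups did not overlap for 299 genes that were higher (1.95%) and 3178 that were lower (20.8%). The direction of these counts turned on how the mice were scaled. Over all 15315 genes the log2 change had a median of −0.42 in the deposited values, and 9.16% of the genes at the unadjusted limit were higher. After quantile normalization the median was −0.01, with 970 genes higher (6.33%) and 914 lower (5.97%), so that 51.5% were higher. After centring on the median 1121 were higher (7.32%) and 733 lower (4.79%). Lypd8 alone held 8.06% and 6.52% of the total in treated mice 2 and 3 and 3.34% to 3.98% in the other 4 compared mice, and its part in the median was not tested. Log2 changes below are differences of group means of log2(FPKM + 0.1) in the deposited values, and a gene or list is to be read against the median of −0.42. On this scale the change of low genes is understated.

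Without the colitis mouse 4 receiving BBR, 2895 genes (18.9%) passed the adjusted limit, 265 higher (1.73%) and 2630 lower (17.2%), and all 3 genes called with every mouse were among them. This mouse was known to be the treated mouse nearest to normal. More calls and smaller p-values without it, here and below, follow from that choice and are not further evidence of change. Of the 2895 genes, 2078 were at the unadjusted limit with every mouse. Without the mice numbered 4 of all groups, 2157 genes (14.1%) passed, 217 higher (1.42%) and 1940 lower (12.7%), and 1719 genes were called in both of these fits. Of 109 genes named in the text, 80 passed the adjusted limit without treated mouse 4 and not with it, where 18.9% of all genes passed without this mouse. Many of the named genes were chosen for their size or p-value in these data, so a high share follows from the choice. Leaving out any 1 of the other 5 compared mice left 0 genes past the adjusted limit in limma and 1482 to 2157 at the unadjusted limit. The 3 calls, of Socs3, Igfbp3 and Tnfrsf17, were also lost, with 0 genes called by limma, in a fit of the 6 compared mice alone, without the trend on mean expression and with the replicate number as a block. A block for the mice numbered 4 called 40 genes (0.261%), 10 higher (0.0653%) and 30 lower (0.196%).

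Socs3, which encodes the feedback inhibitor that cytokines acting through Stat3 induce in their own target cells, had 4.65, 2.25 and 3.44 FPKM in normal mice and 20.8, 61.1 and 23.9 in treated mice. The groups did not overlap, and mouse 4, near normal in most genes, was above mouse 2. The means were 3.45 ± 1.2 and 35.3 ± 22.5 FPKM (SD, n = 3 each), and the log2 change was 3.20 ± 0.40 (SE, limma Benjamini-Hochberg adjusted p = 0.0277). Colitis mice had 38.3, 40.2 and 60.6 FPKM, overlapping with the treated mice (log2 difference −0.54 ± 0.40, limma adjusted p = 1), and normal mice receiving BBR had 2.43, 1.55 and 1.86. Of 22 Jak-Stat feedback and receptor genes, 2 were higher and 3 lower at the unadjusted limit, where 1.84% of all genes were higher and 18.3% lower, so that the share of lower genes is under that of all genes. After quantile normalization 7 were higher and 1 lower (against 6.33% and 5.97% of all genes). The other higher gene was Socs1, the feedback inhibitor of interferon signalling (2.95, 2.46 and 3.06 against 4, 8.39 and 5.89 FPKM, log2 change 1.03). The lower genes were Socs2 and Cish, which growth hormone and related signals induce through Stat5, and the interleukin-6 receptor gene Il6ra. Cish had 12.5, 8.21 and 9.63 FPKM in normal and 2.99, 2.28 and 8.46 in treated mice, with mouse 4 inside the normal range. Socs2 had 19.1, 14 and 18.2 FPKM in normal and 6.37, 6.61 and 14.7 in treated mice. Stat3 itself was at 32.5, 31.6 and 35.3 FPKM in normal and 33.8, 33.1 and 52.7 in treated mice, and all 3 genes overlapped between the groups.

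Igfbp3, which encodes a secreted carrier of insulin-like growth factors, went from 19.9, 13.3 and 18.6 FPKM in normal mice to 1.55, 1.87 and 3.96 in treated mice. All treated mice were below all normal mice, with mouse 4 the highest of them. The means were 17.3 ± 3.51 and 2.46 ± 1.31 FPKM (SD, n = 3 each), and the log2 change was −2.86 ± 0.35 (limma adjusted p = 0.0277). Colitis mice without BBR were in the same range, at 1.91, 3.16 and 3.71 FPKM (log2 difference −0.31 ± 0.35, limma adjusted p = 1), and normal mice receiving BBR were at 14.7, 12.9 and 14.5.

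Tnfrsf17, the gene of the survival receptor BCMA of plasma cells, fell from 2.15, 3.24 and 1.74 FPKM to a listed 0 in colitis mice 2 and 3 receiving BBR and 0.14 in mouse 4 (limma adjusted p = 0.0277). On a transcript of 2000 bases 3 reads are worth 0.0819 to 0.126 FPKM in these mice, which is about as large as the highest of them, so no fold change is given. Colitis mice without BBR had 0.48, 0.77 and 0.13 FPKM, the lowest of them within the range of the treated mice (limma adjusted p of the difference = 0.51). The two-sided exact permutation test, with 3 mice a side, gave p = 0.1 for each of these 3 genes, the smallest value it can give.

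**Figure D2:**
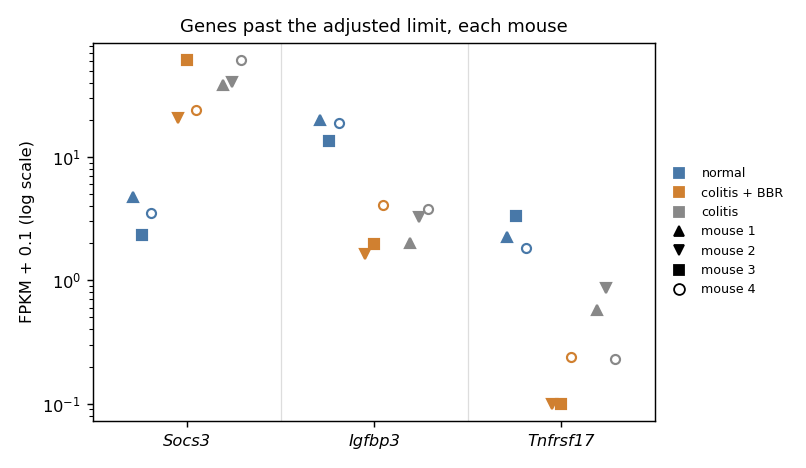
FPKM + 0.1 on a log scale for the 3 genes past the adjusted limit, with 1 point per mouse, color for the group and the marker shape for the mouse number. Colitis mouse 4 receiving BBR, the open circle, lies with mice 2 and 3 of its group in all 3 genes.

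The sequence upstream of Socs3 is shown because it holds the only match, among the 3 called genes, to a motif searched in the 250 bases before the transcription start. In RefSeq's GRCm38.p6 it lies on the minus strand at chr11:117969367-117969616, and capitals mark TTCNNNGAA, the spaced palindrome that Stat factors bind, here starting 154 bases before the transcription start.
Socs3: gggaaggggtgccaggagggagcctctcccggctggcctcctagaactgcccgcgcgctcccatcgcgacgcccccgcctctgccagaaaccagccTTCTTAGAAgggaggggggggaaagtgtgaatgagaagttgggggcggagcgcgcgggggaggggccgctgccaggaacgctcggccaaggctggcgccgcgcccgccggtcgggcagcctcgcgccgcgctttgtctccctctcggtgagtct
This motif was added after the sequence had been seen. It occurs in 7.02% of 32851 promoters of the same length. The other motifs, searched on both strands, were TGANTCA (6.75% of promoters), TTCCNGGAA (0.913%, each match also matching TTCNNNGAA), CACGTG (6.02%) and the NF-kappaB motif (1.41%), and none of them matched upstream of Socs3, Igfbp3 or Tnfrsf17. A match describes letters and is not evidence of binding.

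Clca4b, Slpi, Mfsd2a and Cd38 were above normal in all 3 treated mice without passing the adjusted limit, and are named for their size or p-value. Clca4b, a calcium-activated chloride channel regulator family member made by injured colon epithelium, had 3.44, 5.72 and 5.46 FPKM in normal mice and 378, 3367 and 100.3 in treated mice. Mouse 3 was above every colitis mouse (3067, 3291 and 1636 FPKM), and mice 2 and 4 were below them but above every normal mouse. The log2 change was 6.70 ± 0.98, short of the adjusted limit (limma adjusted p = 0.0556), and was 7.86 without mouse 4 (adjusted p = 0.00218). Slpi, a secreted protease inhibitor of mucosal surfaces, had 6.59, 12.3 and 14.2 FPKM in normal mice, 446, 1118 and 113 in treated mice and 263, 1294 and 284 in colitis mice, with a log2 change of 5.18 ± 0.79 (limma adjusted p = 0.0556). The treated mice were all above normal and overlapped with the colitis mice, with mouse 4 below them. Mfsd2a, a lysophospholipid transporter gene, was at 0.48, 0.28 and 0.5 FPKM in normal and 7.53, 55.2 and 4.13 in treated mice (log2 change 4.57). Cd38, which encodes an NAD-consuming surface enzyme, had 67.1, 68.6 and 63.1 FPKM in normal, 151, 215 and 141 in treated and 260.2, 209.7 and 206 in colitis mice (log2 change 1.32 ± 0.20, limma adjusted p = 0.0556).

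Of 30 epithelial antimicrobial and acute-phase genes, 15 were higher (against 1.84% of all genes) and 2 lower (against 18.3%) at the unadjusted limit, with a median log2 change of 1.64 where the median of all genes was −0.42, and none passed the adjusted limit with all mice. Without mouse 4, 14 passed it higher and 2 lower (against 1.73% and 17.2% of all genes), and without the mice numbered 4 the counts were also 14 and 2 (against 1.42% and 12.7%). The share of lower genes was thus under that of all genes in each fit. Nos2, the inducible nitric oxide synthase, was at 1.05, 0.44 and 0.42 FPKM in normal and 11.7, 148 and 2.21 in treated mice. Duox2 and its maturation factor Duoxa2, which make hydrogen peroxide at the epithelial surface, were also higher. Duox2 was at 22.3, 19.6 and 30.98 FPKM in normal and 161, 298 and 32.5 in treated mice, and Duoxa2 at 19.9, 12.01 and 15.8 and 145, 419 and 22.6. Dmbt1, a mucosal scavenger protein gene, was higher in each treated mouse, with 786, 1177 and 825 against 5449.7, 3452 and 1404 FPKM (log2 change 1.70). In each of Nos2, Duox2, Duoxa2 and Dmbt1, mouse 4 was the treated mouse closest to normal. The antibacterial lectin gene Reg3g was listed at 0 in every normal mouse, while it had 0.27, 36.9 and 0.29 FPKM in treated mice, where mouse 3 alone was high, against 79.7, 29.5 and 4.92 in colitis mice. Its neighbour Reg3b was at 0, 75.3 and 0.22 in treated and 401, 53.6 and 27.5 in colitis mice. These groups overlapped, and treated mice 2 and 4 were too near 0 for a fold change to be given. Saa3, an acute-phase serum amyloid gene, was at 0.51, 1.1 and 0.92 FPKM in normal, 38.02, 63.6 and 1.13 in treated and 433, 2181 and 59.7 in colitis mice, so that no treated mouse reached the 2 highest colitis mice (log2 difference between treated and colitis mice −4.74). The 2 lower genes of the list were Reg4 (372, 317 and 183 against 25.7, 48.7 and 117 FPKM) and the colon oxidase gene Nox1 (17.8, 11.4 and 13.3 against 0.12, 0.69 and 7.73), and in both mouse 4 was nearest to normal.

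Granulocyte markers were above normal in treated mice 2 and 3, and their summed level in mouse 4 lay in the normal range. The summed level of the 25 genes was 642 to 1146 FPKM in normal mice, 1016 to 5196 in treated mice and 1710.0 to 7203 in colitis mice, most of it from Ly6g and Pglyrp1. Ly6g has close relatives in its gene family with which reads may be shared. S100a8, a calprotectin subunit that marks neutrophils, was listed at 0 in every normal mouse, and it had 118, 148 and 0.31 FPKM in treated and 336, 289.7 and 24.9 in colitis mice. S100a9, its partner, was at 0, 0 and 0.45 FPKM in normal, 85.3, 45.7 and 0.11 in treated and 142, 161 and 15.7 in colitis mice. Both were thus over 40 FPKM in 2 treated mice and close to 0 in the third. Ltf, the gene of lactoferrin, was at 0.03, 0.05 and 0.12 FPKM in normal, 12.9, 37.97 and 0.47 in treated and 24.4, 32.7 and 26.8 in colitis mice, with mouse 3 the highest of all. At the unadjusted limit 13 of 25 granulocyte genes were higher (against 1.84% of all genes) and none lower, with a median log2 change of 1.36. No granulocyte gene passed the adjusted limit with all mice, and 12 passed it higher without mouse 4 (against 1.73% of all genes) and 14 without the mice numbered 4 (1.42%). Against colitis mice 10 of them were lower and none higher, where 796 of 15315 genes (5.2%) were lower and 182 (1.19%) higher between these groups. In whole tissue, fewer cells of a type and less RNA per cell cannot be told apart.

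In that comparison of colitis mice with and without BBR, limma called 0 genes at the adjusted limit (0% of 15315), and 978 (6.39%) were at the unadjusted limit. Other settings called up to 4 genes, and leaving out treated mouse 3 called 58. The lowest adjusted p, 0.0844, belonged to Csf3, the gene of the cytokine that drives neutrophil production. It was listed at 0 in normal mice, at 0.06, 0.3 and 0.04 FPKM in treated mice and at 2.03, 2.76 and 1.44 in colitis mice, so that the treated mice lay below every colitis mouse. Of the treated values, 2 are under what 3 reads are worth on a transcript of 2000 bases. Of 17 tested genes for neutrophil-attracting chemokines and related cytokines, 6 were above normal (against 1.84% of all genes) and 8 below colitis mice (against 5.2%) at the unadjusted limit. Cxcl2 was at 0.08, 0 and 0.05 FPKM in normal, 0.49, 3.73 and 0.26 in treated and 6.93, 19 and 6.09 in colitis mice, the treated mice between the other groups without overlap (log2 difference from colitis mice −3.33). Cxcl1 had 0.38, 0.39 and 0.59 FPKM in normal, 11.7, 30.1 and 0.99 in treated and 18.97, 103 and 13.2 in colitis mice. Il1b was at 1.03, 0.24 and 0.49 in normal, 3.58, 11.2 and 0.29 in treated and 24.4, 32.5 and 11.6 in colitis mice, with mouse 4 inside the normal range. Tnf was at 0.33, 0.34 and 0.4 FPKM in normal, 7.68, 33.8 and 2.15 in treated and 17.2, 23.4 and 8.94 in colitis mice (log2 change of treated from normal mice 4.21 ± 0.74, limma adjusted p = 0.0977). Here every treated mouse was above normal, and the treated mice overlapped with the colitis mice. Among 25 other chemokines, 3 were higher (against 1.84% of all genes) and 3 lower (against 18.3%). After quantile normalization 6 were higher (6.33%) and 1 lower (5.97%). Without the mice numbered 4, 3 were higher (1.42%) and none lower (12.7%) at the adjusted limit. The monocyte attractants Ccl7, Ccl8 and Ccl12 were higher than normal at the unadjusted limit, Ccl8 with 4.42, 5.39 and 2.53 FPKM against 37.3, 59.2 and 18.5. Ccl22, Cxcl12 and Cxcl14 were lower, Cxcl14 with 5.94, 5.1 and 5.39 FPKM against 0.17, 1.33 and 2.55.

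Macrophage genes and matrix proteases lay nearer to normal than in colitis mice. Of 26 macrophage and monocyte genes, 1 was higher and 4 were lower than normal at the unadjusted limit, with a median log2 change of −0.02, and 18 were lower than in colitis mice, or 16 without the mice numbered 4, where 1136 genes (7.42%) differed, 951 lower (6.21%) and 185 higher (1.21%). The share lower than normal is under the 18.3% of all genes. After quantile normalization the list had 3 genes higher and 1 lower than normal (against 6.33% and 5.97% of all genes), with a median of 0.39 for the 26 genes. Their summed level was 319.8 to 440.2 FPKM in normal, 232 to 496 in treated and 481 to 1557 in colitis mice. Lyz2, the lysozyme of myeloid cells, had 81.3, 102 and 105 FPKM in normal, 97.7, 132 and 72.2 in treated and 238, 535 and 124 in colitis mice. Mpeg1, a pore-forming protein of macrophages, had 6.89, 8.54 and 8.58 FPKM in normal, 3.5, 5 and 3.29 in treated and 9.33, 21.5 and 10.9 in colitis mice, so that the treated mice were below both other groups (log2 change −1.02 ± 0.35 from normal and −1.72 ± 0.35 from colitis mice, limma adjusted p = 0.219 and 0.418). Csf1r, the receptor that macrophages need to survive, had 5.83, 8.08 and 8.74 FPKM in normal, 3.13, 3.56 and 3.21 in treated and 5.01, 12.4 and 7.08 in colitis mice. The treated mice were below every normal and every colitis mouse in Mpeg1 and Csf1r alike, while Cd68, a lysosomal protein of macrophages that other cells also hold, was the 1 higher gene of the list. Ly6c2, a marker of inflammatory monocytes, was at 21.96, 32.7 and 16.4 FPKM in normal and 0.98, 5.9 and 1.61 in treated mice, but it has a near-identical neighbour, Ly6c1, and the estimate may split reads between them. Of 11 MHC class II presentation genes 6 were lower than in colitis mice, where 5.2% of all genes were, and 1 lower than normal. Without the mice numbered 4, 2 were lower than in colitis mice (against 6.21% of all genes). Cd74, the class II invariant chain, had 120.2, 157 and 180.3 FPKM in normal, 64.5, 169 and 73.8 in treated and 168, 300.5 and 321 in colitis mice, overlapping with both groups. T and cytotoxic lymphocyte genes gave 0 of 19 at the unadjusted limit in limma, and their summed level was 11.5 to 15.5 FPKM in normal and 6.39 to 26.6 in treated mice.

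Of 22 matrix protease and inhibitor genes, 14 were lower in treated than in colitis mice (against 5.2% of all genes) and none higher, and 11 were lower without the mice numbered 4 (6.21%). Against normal, 2 were higher and 4 lower, the latter a share close to the 18.3% of all genes. Mmp13, a collagenase, was at 1.67, 2.93 and 1.19 FPKM in normal, 1.24, 3.49 and 0.12 in treated and 27.01, 162 and 9.99 in colitis mice, so that the treated mice spanned the normal range and lay below every colitis mouse (log2 difference from colitis mice −5.12 ± 1.02, limma adjusted p = 0.418). Mmp10, a stromelysin of injured epithelium, was at 0.58, 1.43 and 0.53 FPKM in normal, 1.72, 6.37 and 0 in treated and 48.9, 236 and 6.02 in colitis mice. Mmp3, the stromelysin of fibroblasts, was at 0.34, 0.3 and 1.04 FPKM in normal, 2.95, 11.6 and 0.39 in treated and 25.03, 83.4 and 17.7 in colitis mice, with 2 treated mice above normal. Plaur, the urokinase receptor gene, was an exception at 3.99, 3.07 and 2.84 FPKM in normal and 19.5, 83.6 and 5.59 in treated mice, next to 29.9, 115 and 10.9 in colitis mice. Mmp2, the gelatinase of resting stroma, was below normal, at 17.2, 17.8 and 22.1 against 3.06, 2.59 and 10.01 FPKM.

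**Figure D3:**
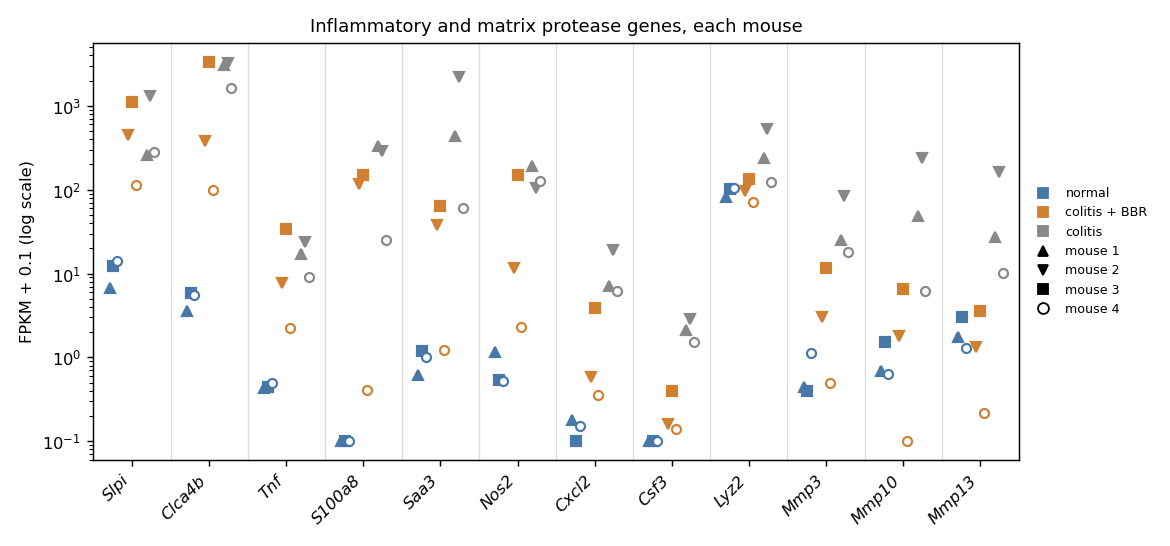
FPKM + 0.1 on a log scale for 12 inflammatory and matrix protease genes, with 1 point per mouse, color for the group and marker shape for the mouse number. Slpi, Clca4b and Tnf are above normal in all 3 colitis mice receiving BBR, Cxcl2 and Csf3 lie between normal and colitis mice, and Mmp13 lies on both sides of the normal range in treated mice.

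Interferon response genes were 37 in number, of which 5 were higher than normal (against 1.84% of all genes) at the unadjusted limit and none lower, with a median log2 change of 0.79. After quantile normalization 23 were higher (against 6.33% of all genes). Zbp1, a sensor of unusual nucleic acids, had 38.4, 28.8 and 39.6 FPKM in normal, 100.3, 431 and 48.6 in treated and 221, 267 and 157 in colitis mice. Ifit2, an antiviral RNA-binding protein gene, had 1.9, 2.8 and 2.61 FPKM in normal, 6.12, 52.97 and 2.57 in treated and 68.6, 36.5 and 48.5 in colitis mice, with mouse 4 inside the normal range. Of 29 regenerative epithelium genes 5 were higher (against 1.84% of all genes) and 1 lower (against 18.3%) at the unadjusted limit. Plet1, a surface protein of progenitor cells, was at 1.03, 0.79 and 0.66 FPKM in normal, 13.7, 443 and 2.32 in treated and 690.2, 493 and 175 in colitis mice, with treated values far apart (log2 change from normal 4.75 ± 1.35, limma adjusted p = 0.21). Ly6a, known as Sca-1 and a mark of fetal-like repair epithelium, was at 453, 665 and 323 FPKM in normal, 1772, 6231 and 665 in treated and 4541, 5312 and 1693 in colitis mice, and treated mouse 4 was level with the highest normal mouse. The 7 hypoxia and glycolysis genes higher at the unadjusted limit, of 20 (against 1.84% of all genes), included Adm, the gene of the vessel-relaxing peptide adrenomedullin, at 5.84, 7.01 and 5.49 against 34.3, 35.7 and 8.05 FPKM, and Vegfa, at 32.2, 42.03 and 28.6 against 91.9, 86.7 and 35.95. Vegfa was at 33.2, 41.1 and 27.2 FPKM in colitis mice, lower than in treated mice at the unadjusted limit (log2 difference 0.98 ± 0.35, limma adjusted p = 0.631).

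Jchain and 4 other plasma cell genes were lower than normal in every treated mouse. Jchain, which links secreted IgA, had 189.8, 235 and 173 FPKM in normal, 4.48, 21.7 and 29.02 in treated and 71.6, 89.5 and 32.4 in colitis mice. The treated mice were below every mouse of both other groups, with log2 changes of −3.79 ± 0.59 from normal (limma adjusted p = 0.063) and −2.05 ± 0.59 from colitis mice (adjusted p = 0.51). Normal mice receiving BBR were at 264, 184 and 149 FPKM. Mzb1, a plasma cell chaperone, followed the same order at 7.32, 6.46 and 7.88 FPKM in normal, 0.21, 1.38 and 1.17 in treated and 2.05, 5.2 and 1.48 in colitis mice. Pou2af1, a coactivator of immunoglobulin genes, was at 1.52, 2.3 and 4.22 FPKM in normal, 0.23, 0.26 and 0.86 in treated and 0.31, 0.69 and 0.53 in colitis mice, and overlapped between treated and colitis mice. In all, 5 of 16 B and plasma cell genes were lower than normal at the unadjusted limit, where 18.3% of all genes were, and none higher (Tnfrsf17, Jchain, Mzb1, Pou2af1 and Derl3), and the 5 also passed the adjusted limit without mouse 4 and without the mice numbered 4. After quantile normalization 5 of the list were lower (against 5.97% of all genes) and 2 higher (6.33%). Xbp1, which plasma cells share with goblet cells, was at 87.6, 98.7 and 76.6 FPKM in normal and 132, 154 and 90.3 in treated mice, and the B cell receptor gene Cd79a was at 3.21, 3.07 and 12.3 FPKM in normal and 1.19, 1.89 and 4.78 in treated mice, with overlap.

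Several stromal and vessel genes lay below normal at the unadjusted limit. Adamdec1, a protease of lamina propria fibroblasts and macrophages, had 43.02, 62.5 and 45.4 FPKM in normal, 3.4, 7.19 and 17.1 in treated and 17.7, 16.2 and 26.9 in colitis mice (log2 change from normal −2.71 ± 0.44, limma adjusted p = 0.0805). Bmp5, a growth factor of the stroma beneath the epithelium, had 7.66, 9.07 and 7.99 FPKM in normal, 0.43, 1.31 and 2.78 in treated and 2.88, 4.52 and 4.24 in colitis mice, with the treated mice below both other groups. C1qtnf3, a secreted C1q family protein gene, was low in colitis with or without BBR, at 6.32, 9.42 and 6.49 FPKM in normal, 0.38, 0.16 and 1.31 in treated and 0.12, 0.06 and 0.66 in colitis mice. Of 34 fibroblast and collagen genes 15 were lower (against 18.3% of all genes) and 1 higher at the unadjusted limit, with a median log2 change of −1.29, or −0.87 after quantile normalization, where 10 were lower (against 5.97% of all genes). At the adjusted limit the 1 lower gene with all mice, Igfbp3, became 18 lower genes without mouse 4 (against 17.2% of all genes) and 9 lower and 1 higher without the mice numbered 4 (12.7% and 1.42%). Pdgfra, the growth factor receptor of fibroblasts, had 6.1, 6.91 and 8.65 FPKM in normal and 1.45, 1.69 and 3.16 in treated mice, and Postn, a matrix protein of the fibroblasts around crypts, had 71.5, 104 and 122 FPKM in normal and 11.3, 11.5 and 59.9 in treated mice. Treated mouse 4 was the nearest to normal in both. Of 19 endothelial genes 9 were lower at the unadjusted limit (against 18.3% of all genes), but after quantile normalization 3 were lower (5.97%) and 2 higher (6.33%). At the adjusted limit 9 were lower without mouse 4 (17.2%), 4 without the mice numbered 4 (12.7%) and none with every mouse. Pecam1, an adhesion protein of all vessels, was lower, at 10.8, 10.3 and 10.7 FPKM in normal and 3.02, 1.99 and 5.65 in treated mice.

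Ccnb2 and Cdc20, genes of cell division, were lower in every treated mouse than in every normal and colitis mouse. Ccnb2, a mitotic cyclin, had 21.2, 8.83 and 18.7 FPKM in normal, 0.16, 3.26 and 3.13 in treated and 10.1, 10.7 and 22.8 in colitis mice. Ccnb2 had a log2 change from normal of −3.44 ± 0.84 (limma adjusted p = 0.186) and a log2 difference from colitis mice of −3.27 ± 0.84 (adjusted p = 0.486). Cdc20, which starts chromosome separation, had 12.3, 6.88 and 13.6 FPKM in normal, 0.18, 3.68 and 2.9 in treated and 5.05, 7.47 and 16.9 in colitis mice. Mki67, the common marker of cycling cells, had 17.3, 9.44 and 20.9 FPKM in normal, 0.42, 8.79 and 5.8 in treated and 8.81, 12.4 and 19.5 in colitis mice, and mouse 2 was far below the rest in all 3 genes. Of 29 proliferation genes, 12 were lower than normal at the unadjusted limit (against 18.3% of all genes) and 11 lower than colitis mice (against 5.2% of all genes), with none higher in either comparison, and the medians were −1.47 and −1.26 on the log2 scale. Without the mice numbered 4, 2 of the 29 were lower than in colitis mice, where 6.21% of all genes were. The median of colitis against normal mice was −0.17. After quantile normalization 8 of the genes were lower than normal (against 5.97% of all genes). At the adjusted limit 6 were lower without mouse 4, near the 17.2% of all genes, and 1 without the mice numbered 4, under the 12.7% of all genes. Normal mice receiving BBR had 7.13, 10 and 3.37 FPKM of Ccnb2, all above the treated mice and overlapping with the normal mice, and a summed level of the list of 157 to 265 FPKM, against 287 to 378 in normal, 95.2 to 268 in treated and 218 to 522 in colitis mice.

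Lgr5, Ascl2 and Axin2, genes of the crypt base, were below every normal mouse in treated mice 2 and 3, and treated mouse 4 overlapped with normal in Axin2 alone of these 3 genes. Lgr5, the marker of crypt base stem cells, had 0.87, 1.41 and 1.27 FPKM in normal, 0.01, 0 and 0.22 in treated and 0, 0.01 and 0.25 in colitis mice, with mouse 4 highest in both colitis groups and still below normal, at values too low for a usable fold change. Ascl2, the transcription factor of these stem cells, had 3.68, 1.76 and 1.77 FPKM in normal, 0.05, 0.05 and 0.88 in treated and 0.05, 0.09 and 0.98 in colitis mice, and Axin2, a general Wnt target, had 4.63, 2.3 and 5.34 FPKM in normal, 0.39, 0.34 and 2.96 in treated and 0.24, 0.32 and 1.96 in colitis mice. The summed level of the list, which holds more abundant genes too, was 212 to 225 FPKM in normal, 106 to 215 in treated and 226 to 351 in colitis mice, so that treated mouse 2 lay below the normal range and no colitis mouse did. Of 18 stem cell and Wnt target genes 7 were lower than normal at the unadjusted limit (against 18.3% of all genes) and none higher, with a median log2 change of −1.17, and 1, Cd44, differed from colitis mice. After quantile normalization 5 were lower (against 5.97% of all genes), with a median of −0.68. At the adjusted limit 9 were lower without mouse 4 (17.2%) and 8 without the mice numbered 4 (12.7%). Of 12 Wnt ligand and R-spondin genes tested, 4 were lower than normal (against 18.3% of all genes) and none higher at the unadjusted limit. At the adjusted limit 3 were lower without mouse 4 (against 17.2%) and 1 without the mice numbered 4 (against 12.7%). After quantile normalization 2 were lower (against 5.97%) and 1 higher (against 6.33%), and the median went from −0.99 to −0.48. Wnt2b, a stromal ligand that sustains stem cells, had 1.33, 1.82 and 3.19 FPKM in normal, 0.18, 0.42 and 1.32 in treated and 0.24, 0.5 and 0.84 in colitis mice, and Wnt5a, which acts on crypt repair, had 2.02, 2.12 and 2.71 FPKM in normal, 0.26, 0.92 and 0.75 in treated and 0.75, 1.78 and 2.02 in colitis mice. Treated mouse 4 was nearest to normal in Ascl2, Axin2 and Wnt2b.

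**Figure D4:**
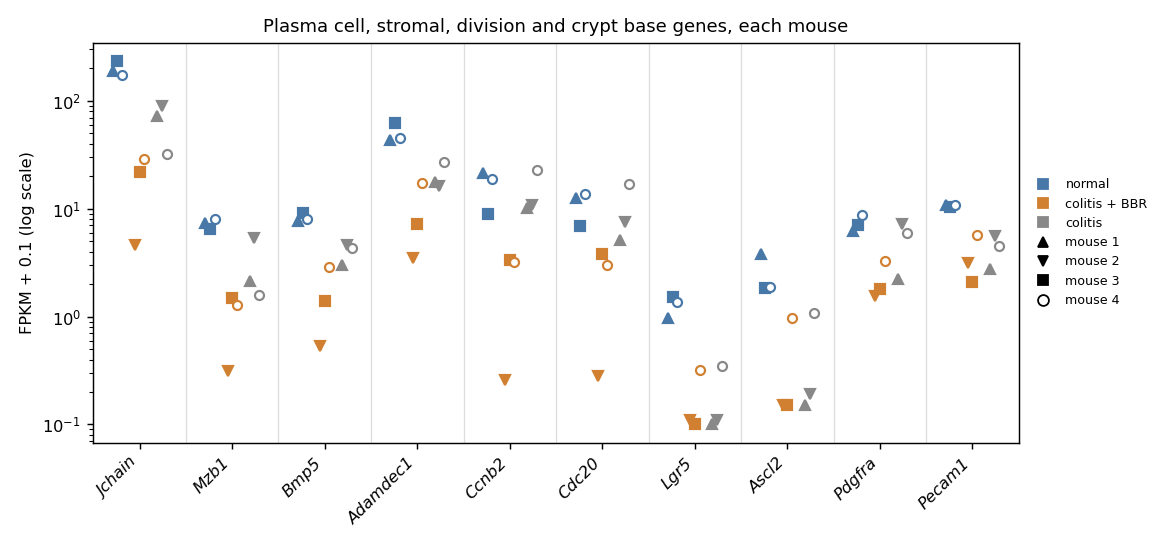
FPKM + 0.1 on a log scale for 10 plasma cell, stromal, division, crypt base and vessel genes, with 1 point per mouse, color for the group and marker shape for the mouse number. In Jchain, Mzb1, Bmp5, Ccnb2 and Cdc20 the 3 colitis mice receiving BBR lie below all normal and all colitis mice, while in Lgr5 and Ascl2 they share the range of the colitis mice.

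Of 19 goblet cell genes 2 were higher (against 1.84% of all genes) and 1 lower (against 18.3%) at the unadjusted limit, while their summed level was 15690 to 36630 FPKM in normal and 18530 to 87440 in treated mice. Muc2, the main mucin, was higher in each treated mouse, at 440.2, 415 and 581 against 833, 1287 and 792 FPKM (log2 change 1.00 ± 0.39, limma adjusted p = 0.226), with 352, 1105 and 645 in colitis mice. Zg16, a secreted lectin of goblet cells, had 15823, 15809 and 6614 FPKM in normal, 30318, 43992 and 8456 in treated and 7661, 40337 and 4138 in colitis mice, with the lowest value of each group in the mouse numbered 4. Of 37 absorptive colonocyte genes 2 were higher and 4 lower, a share of lower genes under the 18.3% of all genes. The lower genes included Sult1a1, a sulfotransferase of phenols, at 292, 187 and 134 FPKM against 18.3, 13.3 and 126, and Hpgd, which breaks down prostaglandins, at 183, 248 and 156 against 119, 42.3 and 119. Glutathione transferase Gstm1 was also lower, at 391, 280.01 and 239 against 38.6, 28.2 and 146 FPKM, among 5 lower and 2 higher of 35 drug and retinol metabolism genes, again under that share. Fatty acid oxidation genes numbered 26, of which 5 were lower and 2 higher at the unadjusted limit, close to the share of all genes that were lower. Respiratory chain genes and cholesterol synthesis genes gave 0 of 25 and 0 of 21 at the unadjusted limit in limma. The colon hormones Gcg and Pyy were higher, Gcg with 41.4, 46.5 and 22.9 FPKM against 309, 628 and 61.4, as in colitis mice at 306, 708 and 93.6, and they were among 3 higher of 16 enteroendocrine genes (against 1.84% of all genes), whose summed level was 560.1 to 1059 FPKM in normal and 809.7 to 6048 in treated mice.

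Some genes were higher in treated than in colitis mice and closer there to normal. Slc30a10, a manganese exporter gene, was at 8.11, 4.19 and 5.81 FPKM in normal, 36.6, 3.56 and 6.8 in treated, 13.2, 7.78 and 10.9 in normal mice receiving BBR and 0.72, 0.86 and 0.18 in colitis mice (log2 difference of treated from colitis mice 4.01 ± 0.72, limma adjusted p = 0.299). Every treated mouse was above every colitis mouse. Cyp2d26, a drug-metabolizing cytochrome gene, was at 24.1, 12.7 and 10.98 FPKM in normal, 18.1, 6.43 and 9 in treated and 4.23, 2.22 and 3.4 in colitis mice. Of 37 mineral absorption and calcium handling genes, 1 was higher and 2 were lower than normal at the unadjusted limit, the latter a share under the 18.3% of all genes. After quantile normalization 5 were higher and none lower (against 6.33% and 5.97% of all genes), and the list median went from −0.10 to 0.23. Treated mouse 2 stood out within its group here, with 15197, 355 and 331 FPKM of the metallothionein Mt1 against 722, 1235 and 124 in normal mice, and 141, 15.1 and 6.91 FPKM of the heme-degrading enzyme Hmox1 against 7.71, 4.72 and 4.07.

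Of 22 clock genes, 2 were higher and 2 lower than normal at the unadjusted limit, where 1.84% and 18.3% of all genes were, and none passed the adjusted limit. After quantile normalization 3 were higher and 1 lower (against 6.33% and 5.97% of all genes), and the list median went from −0.75 to −0.25. At the adjusted limit 2 were higher and 6 lower without mouse 4 (against 1.73% and 17.2% of all genes), with a median of −1.05. Without the mice numbered 4, 1 was higher and 4 were lower (1.42% and 12.7%). With every mouse the share of lower clock genes was under that of all genes. Nfil3, a repressor in the output of the clock, was at 0.79, 1.03 and 0.76 FPKM in normal and 2.79, 4.57 and 1.56 in treated mice, without overlap. Hlf, an activator in the same output, was at 1.35, 1.82 and 2.5 FPKM in normal and 0.19, 0.1 and 1.37 in treated mice, with mouse 4 inside the normal range. Nr1d1, the gene of the clock repressor Rev-erb alpha, was at 79.3, 80.4 and 122 FPKM in normal and 51.9, 5.2 and 90.6 in treated mice, with mice 2 and 3 below every normal mouse.

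Genes of tissue outside the mucosa varied between mice. Smooth muscle genes had a summed level of 2888 to 5272 FPKM in normal mice, 996, 1055 and 5481 in treated mice 2, 3 and 4 and 482 to 1411 in colitis mice, and 1 of 24 was lower than normal at the unadjusted limit, but 12 at the adjusted limit without mouse 4 and 5 without the mice numbered 4, where 17.2% and 12.7% of all genes were lower. Actg2, the gut smooth muscle actin, was at 382, 313 and 506 FPKM in normal and 86.6, 72.2 and 801 in treated mice. Of 22 enteric neuron, glia and pacemaker cell genes 4 were lower, close to the 18.3% of all genes. Among them was Ano1, the chloride channel of pacemaker cells, at 69.7, 68.9 and 89.1 against 5.7, 9.6 and 57.9 FPKM. Fat cell genes differed from mouse to mouse, with 0.27, 0.13 and 97.8 FPKM of Cfd in normal mice, 59.95, 28.6 and 1.41 in treated and 2.78, 0.12 and 0.07 in colitis mice, so that 1 normal and 2 treated samples were high. The list summed to 98.8 to 319 FPKM in normal, 82.2 to 181 in treated and 34.1 to 49.9 in colitis mice. Red cell genes summed to 9.56 to 84.8 FPKM in normal, 11.4 to 246 in treated and 30.5 to 609.6 in colitis mice. No red cell gene was at the unadjusted limit of limma, of 5 tested. The part of muscle, fat and blood in the lower stromal and vessel genes was not tested.

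**Figure D5:**
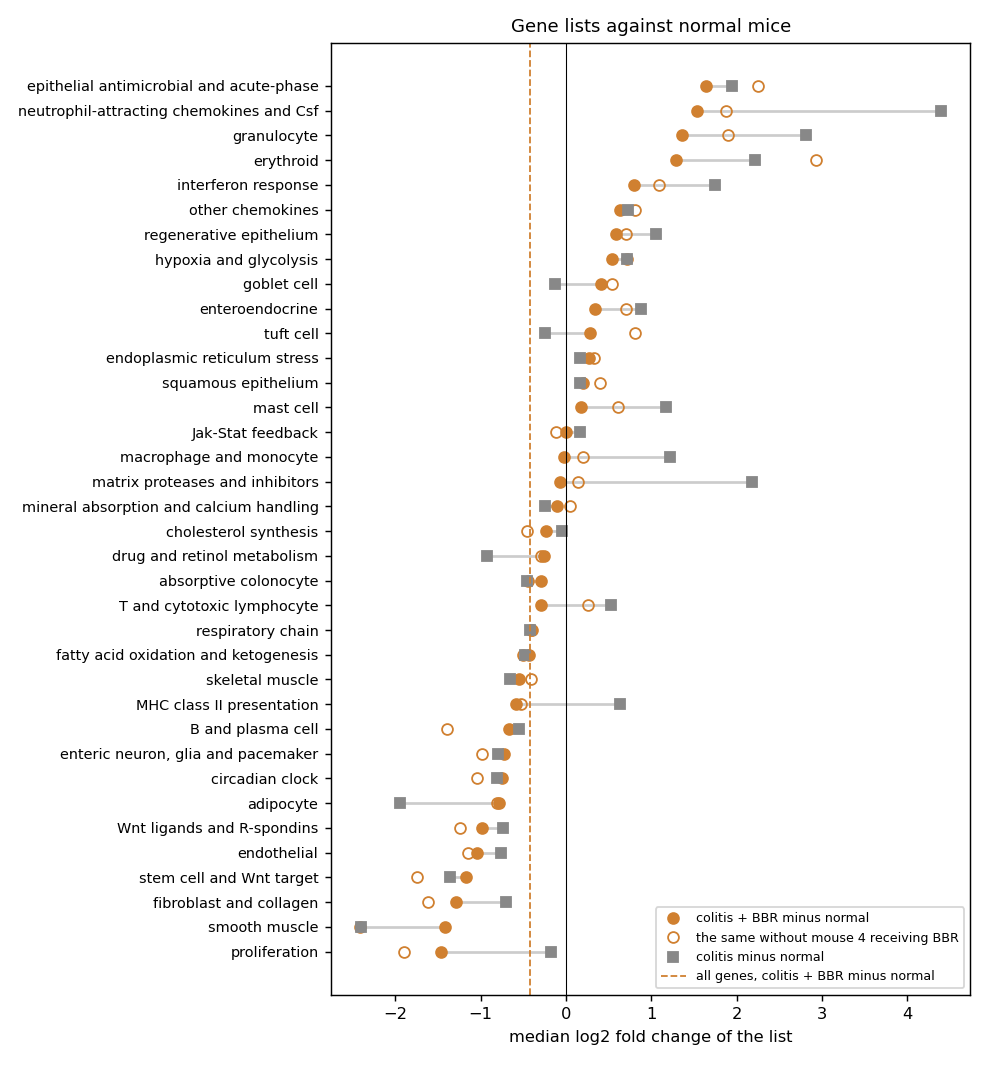
Median log2 change in each of 36 gene lists against normal mice, for colitis mice receiving BBR (filled circles), the same without mouse 4 (open circles) and colitis mice (squares), with the median of all tested genes, −0.42, as a dashed line. Granulocyte and antimicrobial lists lie to the right in both comparisons, proliferation lies to the left in the treated mice and near 0 in colitis mice, and smooth muscle lies further left in colitis mice and, to the same degree, in treated mice without mouse 4.

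Set side by side, the list medians of colitis mice with and without BBR against the same normal mice were 1.54 and 4.40 for neutrophil-attracting chemokines, 1.36 and 2.82 for granulocytes, 1.64 and 1.94 for epithelial antimicrobial genes and −0.07 and 2.18 for matrix proteases. They were −1.17 and −1.36 for stem cell genes, and −1.47 and −0.17 for proliferation. Without the mice numbered 4 of all groups the medians with and without BBR were 2.29 and 2.54 for epithelial antimicrobial genes, −1.56 and −1.76 for stem cell genes and −2.00 and −0.44 for proliferation. They were 2.18 and 4.63 for neutrophil-attracting chemokines and 2.12 and 3.33 for granulocytes. For matrix proteases they were 0.41 and 2.58, so that the median with BBR changed sign. Both comparisons share the normal mice, and genes listed at 0 enter the medians at the pseudocount. The median over all genes was −0.42 with BBR and −0.32 without it.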

How the data were processed

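Rectal RNA of 12 mice was grouped by the sample labels, 3 mice a group. The authors filtered reads with SOAPnuke, aligned them with Bowtie2 2.2.5 to mm9 and estimated expression with RSEM 1.2.12, as their methods and the submitters' processing notes give it, and deposited a table with a column for each mouse, taken here to hold FPKM. That unit was inferred, and TPM is also possible. For library kit and sequencer the labels and the methods disagree, and the methods describe single reads of 50 bases.

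Of 17734 genes listed, 24 had no value above 0. Genes averaging at least 0.1 FPKM over 12 mice, 15315 in number, were tested. The deposited FPKM became log2(FPKM + 0.1) for a limma 3.58.1 fit (R 4.3.3) over all 12 mice, with 1 mean per group and a trend on mean expression. The Benjamini-Hochberg adjustment ran over all 15315 genes, and 0.05 was the limit. No 2 mice had identical columns. The depth is not stated, and was estimated from steps between low values, so it is approximate. On a transcript of 2000 bases, 3 reads were worth 0.0777 to 0.136 FPKM, for counting error only.

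The members and the 36 gene lists were chosen with earlier results of these data known. The rule names genes past the adjusted limit, up to 15 in each direction, and the 3 most expressed genes of a list with under 2 calls. Genes named beyond it were chosen after their values were seen, from the 20 largest differences in each direction at the unadjusted limit with a mean of at least 1 FPKM and no overlap, the smallest p-values and the lists. The alternatives tried were pseudocounts of 1 and 0.01, filtering at 1 FPKM or not at all, quantile normalization, median centring, fitting the 6 mice alone, omitting the trend, a block for the replicate number or for the mice numbered 4, and leaving out mice. List counts without treated mouse 4, without all mice numbered 4 and after quantile normalization, and the motif TTCNNNGAA, were added after seeing the data. The main fit was run on simulated data with independent noise for each gene and mouse. The simulation held no deviation shared across genes in 1 mouse and no shift of all genes, so it does not test the fit under these. Promoter sequences are from RefSeq's GRCm38.p6, and no coordinate of the deposited data was used. Python 3.11.15, numpy 2.4.6, pandas 2.3.3 and matplotlib 3.10.9 served for depth, sequences and plots.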

Additional observations from a re-analysis of the deposited data

Results flagged for a closer look

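Mpeg1, the pore-forming protein of macrophages, was the 1 gene named in the report for which all 3 colitis mice receiving BBR lay below every normal mouse while all 3 colitis mice lay above every normal mouse. Its log2 difference between colitis mice with and without BBR was −1.72 ± 0.35. That difference tests whether colitis mice with and without BBR differ, and not whether they lie on opposite sides of normal. It did not pass the adjusted limit (limma Benjamini-Hochberg adjusted p = 0.418). Mpeg1 was picked for this separation in the same values. No group was tested for a sample far from the others, since all groups have 3 mice.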

How the results depend on the processing

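The 3 adjusted calls against normal were the same in number with a pseudocount of 0.01 and without a filter, and 4 with a pseudocount of 1 and after quantile normalization. They fell to 0 in the fit of the 6 mice, without the trend and with the replicate block, and rose to 40 with a block for the mice numbered 4 (10 higher, 30 lower) and to 2157 without these mice (217 higher, 1940 lower). Genes higher numbered 3 after quantile normalization, and genes lower 1 with a filter at 1 FPKM, after quantile normalization and after centring. Leaving out 1 compared mouse gave 0 to 2895 calls, 0 to 265 higher and 0 to 2630 lower, with treated mouse 4 behind each highest value. At the unadjusted limit of 3078 genes the count was 1884 after quantile normalization (970 higher, 914 lower), 1854 after centring (1121 and 733), 5005 with the block for the mice numbered 4 (431 and 4574), 5915 without them (559 and 5356) and 1482 to 6269 on leaving out 1 mouse (127 to 581 and 1234 to 5688). Against colitis mice the 0 adjusted calls became 4 and 2 with a pseudocount of 1 and 0.01, 1 without a filter and 3 without the trend. They became 1 with the replicate block and 2 with the block for the mice numbered 4. On leaving out 1 normal or treated mouse they ranged from 0 to 58, the highest without treated mouse 3. The 978 genes of this comparison at the unadjusted limit became 1685 with the replicate block and 1515 with the block for the mice numbered 4. They ranged from 496 to 1662 on leaving out 1 normal or treated mouse. Colitis mice without BBR were not left out singly. Causes were not tested.

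Normal and treated mice share the numbers 3 and 4 only, with deviations correlated at 0.128 and 0.414 and from −0.382 to 0.341 in other pairs. The correlation of the mice numbered 4 was thus the highest of all pairs. Whether these mice share a factor was not tested. The main fit did not take the numbers to pair the mice.

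Of 1848 gene values against normal, 1644 kept their direction and side of the adjusted limit, 165 passed it newly, 28 lost it and 11 changed direction. Lypd8 came to 0 after quantile normalization. Lyz2 came to −0.24 with the replicate block and from −0.19 to 0.25 on leaving out 1 mouse. Mmp10 came to −0.69 with a pseudocount of 0.01, −0.26 with the replicate block and from −1.03 to 1.98 on leaving out 1 mouse. On leaving out 1 mouse Mmp13 ranged from −1.81 to 0.20 (highest without treated mouse 4), Mt1 from −0.49 to 2.28 and Slc30a10 from −0.24 to 1.42 (both lowest without treated mouse 2). The depth leaves genes with most treated mice under about 0.1 FPKM, such as Lgr5, Csf3 and Tnfrsf17, without a usable fold change.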

Other observations

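Several genes that the report does not name differed from normal in colitis mice receiving BBR at the unadjusted limit or by their size, without passing the limma adjusted limit. They were chosen after their values were seen. The enzymes of the first steps of the urea cycle lay below normal, Cps1 with 2.22, 1.54 and 2.08 FPKM in normal and 0.01, 0.04 and 0.74 in treated mice and Otc with 5.11, 2.9 and 2.24 FPKM in normal and 0, 0.06 and 0.54 in treated mice. Treated mice 2 and 3 were, in both genes, under what 3 reads are worth on a transcript of 2000 bases, so no fold change is given. Colitis mice had 0.03, 0.05 and 1.22 FPKM of Cps1 and 0.54, 0 and 0.33 of Otc. Cldn2, the claudin of leaky junctions in the crypt, had 37.8, 30.7 and 29.6 FPKM in normal, 0.87, 2.67 and 23.2 in treated and 5.61, 1.62 and 36.4 in colitis mice (log2 fold change of treated from normal mice −3.04). Hhip, an inhibitor of hedgehog ligands, had 2.43, 2.62 and 2.92 FPKM in normal, 0.07, 0.07 and 1.22 in treated and 0.11, 0.06 and 1.02 in colitis mice. Bdkrb2, the bradykinin receptor gene, had 3.39, 3.86 and 4.21 FPKM in normal, 0.04, 0.46 and 2.19 in treated and 0.62, 1.78 and 2.35 in colitis mice. In Cps1, Otc, Cldn2, Hhip and Bdkrb2 the treated mice lay below every normal mouse.

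Among higher genes, Retnlb, a goblet cell antibacterial protein, had 8.65, 2.2 and 1.8 FPKM in normal, 16.1, 258 and 13.4 in treated and 156, 292 and 121 in colitis mice. Dhrs9, an oxidoreductase that acts on retinol and steroids, had 2.11, 1.59 and 2.11 FPKM in normal, 6.67, 106 and 7.93 in treated and 80.2, 133 and 37.5 in colitis mice, and it was lower in treated than in colitis mice at the unadjusted limit (log2 difference −2.04 ± 0.92, limma adjusted p = 0.769). Bhmt2, a methyltransferase of methionine synthesis, had 0.07, 0 and 0.03 FPKM in normal and 1.82, 4.21 and 0.21 in treated mice. Gml, a member of the Ly6 family, was listed at 0 in every normal mouse and had 5.97, 28.9 and 0.07 FPKM in treated and 9.94, 31.3 and 2.03 in colitis mice. In the other direction, Pet117, a cytochrome oxidase assembly factor, was listed at 0 in all 3 treated mice, so no fold change is given. It had 2.19, 1.48 and 1.28 FPKM in normal and 1.51, 1.58 and 0.43 in colitis mice.

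The counts of the remaining gene groups are to be read against the 1.84% of all genes that were higher and the 18.3% that were lower. At the unadjusted limit of limma, 3 of 23 endoplasmic reticulum stress genes were higher (Atf3, Chac1 and Calr) and 1 was lower (Phgdh), and after quantile normalization 7 were higher, where 6.33% of all genes were. Tuft cell genes had 1 higher (the cytokine gene Il25) and 1 lower of 14, and mast cell genes 1 and 1 of 8. Squamous epithelium genes, which would mark anal skin in a rectal sample, had 2 higher and 2 lower of 17. Most of their summed level was Sprr2a3, a small proline-rich protein gene that gut epithelium also makes, at 1331, 1596 and 4305 FPKM in normal and 4284, 11824 and 2747 in treated mice, with overlap. Skeletal muscle genes had 0 of 7 at that limit and summed to 10.1 to 20.7 FPKM in normal and 9.4 to 19.3 in treated mice.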
